A study of Mus musculus with 12 samples.

Results

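Caveolae genes were followed in the RNA of mouse ear fibroblasts on soft and stiff gels that either kept or relaxed stress. The list holds 7 genes that code for the coat and the neck of caveolae: the caveolins Cav1 and Cav2, the cavins Cavin1, Cavin2 and Cavin3, and the partners Ehd2 and Pacsin2. They were chosen by name, from what their proteins do, among 33246 genes of the deposited table of raw counts. All 7 passed the filter on low counts, as did 14542 genes in all. Cavin2 had the widest range. On elastic gels its level at 20 kPa was 2.62-fold that at 2 kPa, and Cav1, Cavin1 and Ehd2 rose in the same comparison. In that comparison 14.0% of all genes passed the test. On viscoelastic gels none of the 7 passed the test between the stiffnesses, where 2.28% of all genes did. The stiffness response itself differed between the gel types, by its own test in edgeR, for Cavin2 only, where 7.56% of all genes passed. DESeq2, which called 1389 genes there against 1100 in edgeR, also called Cav1, Cavin1 and Ehd2. Viscoelastic gels had more Cavin3 and less Pacsin2 RNA than elastic gels, averaged over both stiffnesses. The other caveolae genes did not pass that test, which 40.0% of all genes passed.

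Caveolae are small flask-shaped pits of the plasma membrane, abundant in fibroblasts, endothelial cells, adipocytes and muscle. Caveolin proteins sit in the inner leaflet of the membrane and bind cholesterol, and cavins form a coat around them from the cytoplasmic side. EHD2, an ATPase, forms rings at the neck and holds the pit at the surface, and the F-BAR protein PACSIN2 bends the membrane there. Caveolae flatten when membrane tension rises, which returns membrane area to the cell surface, and their cavins can then leave the coat.

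The fibroblasts came from ears of C57BL/6 mice of both sexes, aged 1 month, were expanded to passage 2, and were seeded at 500000 cells on alginate hydrogels. All 4 groups thus share the same source and received no gene edit, drug or vector. Elastic gels were crosslinked covalently, viscoelastic gels ionically (the slow-relaxing kind), and each was made at 2 kPa and at 20 kPa. PolyA RNA was collected after 48 h from 3 samples per group, 12 in all. The study calls them biological replicates, but the labels do not say which samples share animals or cultures, so the p-values measure the spread between these samples, which may be technical. Crosslinker chemistry and stress relaxation change together between the gel types and cannot be told apart in this design.

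Each sample held 36626221 to 43612804 counts. Fibroblast markers were high throughout, with Col1a1 at 5690 to 6790 and Pdgfra at 814 to 1110 CPM. The unit, counts-per-million (CPM), was taken from library totals scaled by TMM. Cartilage genes were high too in the 12 samples, with Col2a1 at 2400 to 3470, Acan at 854 to 1610, Comp at 437 to 813 and Sox9 at 367 to 535 CPM. All lay above the fibroblast markers Thy1 (179 to 292 CPM) and Pdgfrb (252 to 332 CPM) and below Col1a1, Col1a2 and Vim. Pdgfra, Dcn and Lum overlapped their range. The samples are labelled as fibroblasts, and markers of both cell types were high. The summed CPM of the 4 cartilage markers was 4320 to 4370 on 20-kPa elastic gels and 4600 to 5890 in the other groups. The 6 endothelial markers, for a cell type rich in caveolae, summed to 2.02 to 3.51 CPM, and the 4 adipocyte markers to at most 0.264 CPM. Markers of skeletal muscle, keratinocytes and macrophages summed to at most 0.792, 4.84 and 9.01 CPM.

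The caveolae genes lie on 5 chromosomes (GRCm38 coordinates, GENCODE annotation, all protein coding). Cav2 (chr6:17281185-17289115) and Cav1 (chr6:17306335-17341452) are neighbours on the plus strand, 17219 bases apart. Cavin1 lies at chr11:100956733-100970887 on the minus strand, Cavin2 at chr1:51289126-51302960 on the plus strand and Cavin3 at chr7:105480083-105482300 on the minus strand. Ehd2 lies at chr7:15946958-15967567 and Pacsin2 at chr15:83375607-83464606, both on the minus strand. The exons of Cavin3 overlap those of Gm45667, a provisional gene model on the other strand, over 374 bases. The strand setting of the counting is not stated, so reads there cannot be told apart. The other 6 genes share no exon sequence with another annotated gene.

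The 250 bases upstream of the start site are shown for 3 genes: for the neighbouring caveolins, of which Cav1 was called on stiff elastic gels and Cav2 was not, and for Cavin2, the gene with the largest change. They are RefSeq windows of GRCm38.p6, at chr6:17306085-17306334 for Cav1, chr6:17280935-17281184 for Cav2 and chr1:51288876-51289125 for Cavin2, all on the plus strand. Capitals mark matches to any of 5 motifs on either strand, and a match on the other strand appears as its reverse complement.

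Cav1: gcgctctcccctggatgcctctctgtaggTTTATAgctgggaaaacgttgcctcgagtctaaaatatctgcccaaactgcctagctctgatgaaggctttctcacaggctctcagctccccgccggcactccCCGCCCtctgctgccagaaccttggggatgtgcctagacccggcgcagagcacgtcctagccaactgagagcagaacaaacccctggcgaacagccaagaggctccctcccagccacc

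Cav2: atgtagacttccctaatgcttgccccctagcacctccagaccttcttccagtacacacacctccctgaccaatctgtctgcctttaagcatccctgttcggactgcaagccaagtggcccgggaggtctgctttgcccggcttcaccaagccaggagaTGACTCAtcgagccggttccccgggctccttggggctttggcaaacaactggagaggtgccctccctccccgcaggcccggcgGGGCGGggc

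Cavin2: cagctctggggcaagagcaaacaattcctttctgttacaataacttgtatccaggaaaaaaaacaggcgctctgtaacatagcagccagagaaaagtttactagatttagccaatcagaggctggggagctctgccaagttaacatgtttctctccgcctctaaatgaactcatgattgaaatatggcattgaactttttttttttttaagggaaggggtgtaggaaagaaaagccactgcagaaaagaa

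The letters searched were GGAATG for the TEAD site, GGGCGG for the GC box, TATAAA for the TATA box, TGANTCA for the AP-1 site, and the CArG box by its name. Of 32851 mouse windows of the same length, 12.6% held the TEAD letters, 32.7% the GC box, 12.4% the TATA box, 6.75% the AP-1 site and 1.47% the CArG box. Cav1 held a TATA match at bases -221 to -216 from the start site and a GC box at -118 to -113. Cav2 held an AP-1 match at -92 to -86 and a GC box at -9 to -4. The Cavin2 window held no match and was the poorest in G and C of the 3, at 40.4% against 59.6% for Cav1 and 62.0% for Cav2. In windows not printed, Ehd2 held a GC box at -226 to -221, and Cavin1 a GC box at -7 to -2 and a TEAD match at -247 to -242. Of the 3 windows of Pacsin2, 1 held an AP-1 match at -152 to -146, another a GC box at -55 to -50 and the last no match, as was so for a second window of Cav1. Among the Pacsin2 windows, only for that with the GC box were bases after the start site found in a GENCODE transcript. These matches describe letters only.

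Per length of exon, the caveolae genes spanned about 1 order of magnitude. On a scale of reads per kilobase of exon in CPM units (RPKM, computed from CPM and GENCODE exon lengths), Cav1 averaged 191.1 ± 17.1 (SD, n = 12) and Cavin1, the cavin that caveolae cannot form without, 144.3 ± 12.2. Ehd2 followed at 47.75 ± 2.42 RPKM. Cavin3 at 37.74 ± 3.83, Cav2 at 37.18 ± 4.15 and Cavin2 at 36.96 ± 17.7 RPKM did not differ beyond their spread, and Cavin2 reached the range of Ehd2, 43.52 to 50.99 RPKM, in 1 sample on 20-kPa elastic gels (47.4) and lay above it in the other two (56.18 and 82.2). Pacsin2 was lowest, at 17.27 ± 1.81 RPKM. The lowest raw count of any of the 7 in a sample was 1928, of Cavin3. The biological coefficient of variation that edgeR fitted was 4.90% for Ehd2 to 9.26% for Cav2, and 17.0% for Cavin2. It draws each gene toward the trend over all genes. The observed coefficient of variation of Ehd2 within a group was smaller, at 0.473% to 2.78%. For Cavin2 it was larger on 20-kPa elastic (29.2%) and 2-kPa viscoelastic gels (30.3%). It was smaller on 2-kPa elastic (14.7%) and 20-kPa viscoelastic gels (2.56%).

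**Figure D1:**
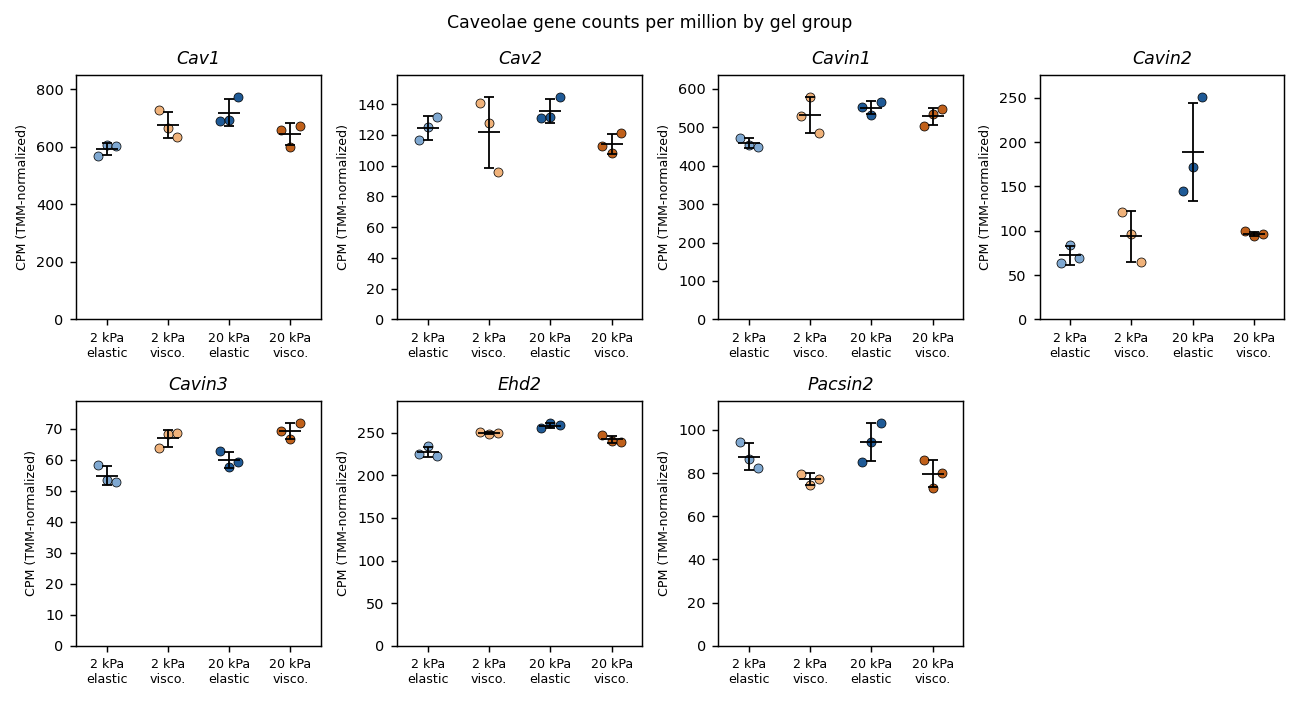
Levels in CPM (TMM-normalized, vertical axes from 0) of the 7 caveolae genes in the 12 samples, by gel group. Points are samples, horizontal lines means and bars SDs of 3 samples. The 3 samples on 20-kPa elastic gels hold the 3 highest values of Cavin2, 144.8 to 251.1 CPM, and the 6 viscoelastic samples hold the 6 highest values of Cavin3.

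Stiffness on elastic gels gave the most calls among the caveolae genes in the main fit. Without 1 sample its count was 1 to 4, as was the count between gel types at 20 kPa. A gene was called at a Benjamini-Hochberg adjusted p under 0.05 over all 14542 genes in edgeR's quasi-likelihood test, which gave every adjusted p of a gene below. Of the 7 genes, 4 were called higher at 20 kPa and none lower, while 14.0% of all genes were called and 6.81% were called higher. The fitted change was positive for 7 of 7, with a median log2 fold change of 0.185 against -0.00834 over all genes tested. In 4 of the 7 genes the 3 samples of one stiffness lay above all 3 of the other, as did those of 35.6% of all genes in either direction.

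On viscoelastic gels, edgeR called 0 of the 7 genes between 20 and 2 kPa, where it called 2.28% of all genes. None of the 7 had an unadjusted p under 0.05, and DESeq2's Wald test called none either. The median log2 fold change was -0.00813 against 0.00795 over all genes. The stiffness groups did not overlap for 1 caveolae gene, Ehd2, and for 22.3% of all genes. The 2 stiffness comparisons share no sample.

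Between viscoelastic and elastic gels at 2 kPa, 2 of the 7 genes were called, both higher on viscoelastic gels, where 19.9% of all genes were called and 8.77% were called higher. Over all genes 1275 were higher and 1617 lower, and 1675 and 1258 when libraries were scaled by total counts alone. The median log2 fold change of the 7 was 0.19 against -7.47e-05 over all genes. The groups did not overlap for 5 of the 7, 4 higher and 1 lower, and for 36.3% of all genes. At 20 kPa, 3 were called, 1 of them higher and 2 lower, where 33.5% of all genes were called, 17.4% higher and 16.1% lower. With total counts alone 2937 were higher and 1901 lower, against 2527 and 2339. Here the median of the 7 was -0.16 against 0.0165 over all genes. The groups did not overlap for 5 of the 7, 1 higher and 4 lower, and for 49.9% of all genes.

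Averaged over both stiffnesses, the viscoelastic effect was called for 2 of the 7 genes, 1 higher and 1 lower, where 40.0% of all genes were called, 19.6% higher and 20.4% lower. Over all genes that was 2846 higher and 2971 lower, and 3538 and 2309 with total counts alone. The 6 viscoelastic samples lay apart from the 6 elastic ones for 1 caveolae gene, Cavin3, and for 12.4% of all genes. The interaction, the viscoelastic effect at 20 kPa minus that at 2 kPa, was called for 1 of the 7, with a negative sign, where 7.56% of all genes were called and 3.12% were called with a negative sign. Its value was negative for 7 of 7, with a median of -0.227 against 0.0168 over all genes. These comparisons share samples with each other and with the stiffness comparisons, so their values for one gene are tied.

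**Figure D2:**
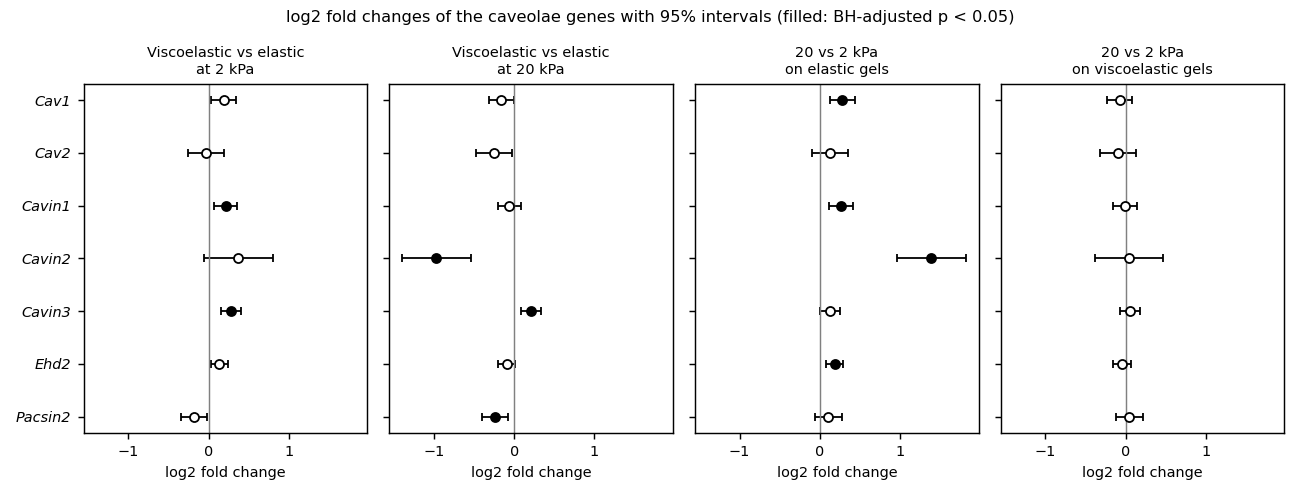
Log2 fold change of each caveolae gene (horizontal axes, 1 panel per comparison of 2 groups) with its 95% interval. Filled points passed an adjusted p of 0.05 over all genes tested. The 7 points between stiffnesses lie between 0.11 and 1.39 on elastic gels and between -0.092 and 0.051 on viscoelastic gels.

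Cav1 codes for caveolin-1, without which non-muscle cells form no caveolae. On 2-kPa elastic gels it measured 568.7, 605.1 and 604.7 CPM, and on 20-kPa elastic gels 689.9, 694.3 and 774.2 CPM. On 2-kPa viscoelastic gels it measured 726.5, 666.8 and 635.3 CPM, and on 20-kPa viscoelastic gels 658.1, 599.8 and 673.4 CPM. The 2-kPa elastic samples lay below every sample of the other elastic and of the 2-kPa viscoelastic group, and they overlapped the 20-kPa viscoelastic group. Cav1 rose 1.21-fold with stiffness on elastic gels, a log2 fold change of 0.28 (SE 0.0735, adjusted p = 0.0202). In bulk RNA, fewer cells of a type and less RNA per cell cannot be told apart, here and for the genes below. On viscoelastic gels the log2 difference was -0.071, with a 95% interval from -0.23 to 0.086. The viscoelastic differences were 0.19 at 2 kPa (adjusted p = 0.081) and -0.16 at 20 kPa (adjusted p = 0.105), neither past the threshold, and the interaction of -0.35 (SE 0.104) just missed it at an adjusted p of 0.0536. DESeq2 and 5 other settings called that interaction, with adjusted p from 0.00742 to 0.0464. The difference at 2 kPa was called with total counts alone (0.0291) and by DESeq2 (0.0396), and that at 20 kPa with gene length offsets (0.0466) and with the block and both offsets (0.0381). The call on elastic gels was lost without replicate 1 on 2 kPa (adjusted p = 0.0874) or replicate 3 on 20 kPa (0.101).

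Cav2 codes for caveolin-2, which joins caveolin-1 in the same oligomers and needs it to reach the surface. It measured 116.8, 124.9 and 131.9 CPM on 2-kPa elastic gels and 131.1, 131.4 and 144.8 CPM on 20-kPa elastic gels. It measured 141, 127.6 and 96.13 CPM on 2-kPa viscoelastic gels and 112.9, 108.4 and 121 CPM on 20-kPa viscoelastic gels. The groups overlapped in each comparison but that at 20 kPa, where the 3 viscoelastic samples lay below the 3 elastic ones. No comparison of Cav2 passed the test. At 20 kPa the viscoelastic difference was -0.25 on the log2 scale, with an interval from -0.48 to -0.027 and an adjusted p of 0.0791. It passed under 4 of 9 other settings and without replicate 1 or 3 of the 2-kPa viscoelastic group, with adjusted p from 0.0115 to 0.0423. Without that replicate 3 its interaction was called as well, at -0.36 (0.0486). On elastic gels the stiffness difference was 0.12, with an interval from -0.10 to 0.35. The lowest Cav2 value, 96.13 CPM, was in replicate 3 of the 2-kPa viscoelastic group, which also held the lowest Cavin2 value of its group.

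Cavin1 codes for the core cavin, a trimer that recruits the other cavins to the coat. It measured 473.6, 454.2 and 449.1 CPM on 2-kPa elastic gels and 553.2, 533.4 and 567.2 CPM on 20-kPa elastic gels. It measured 529.8, 579.7 and 485.8 CPM on 2-kPa viscoelastic gels and 503.4, 535.9 and 547.1 CPM on 20-kPa viscoelastic gels. All 3 samples on 2-kPa elastic gels lay below the other 9 samples. Cavin1 rose 1.20-fold with stiffness on elastic gels (log2 0.26, SE 0.0692, adjusted p = 0.0196) and, at 2 kPa, was 1.16-fold higher in the viscoelastic group (log2 0.21, SE 0.0692, adjusted p = 0.0422). At 20 kPa the viscoelastic difference was -0.060, with an interval from -0.21 to 0.087. The interaction was -0.27 (SE 0.0978, adjusted p = 0.107) and was called with GC offsets (0.0492) and by DESeq2 (0.0308). The call at 2 kPa was near the threshold: it was lost with gene length offsets (adjusted p = 0.061), with only the 2 groups in the fit (0.0879) and in 9 of the 12 fits that leave out 1 sample, with adjusted p up to 0.117. Without replicate 2 or 3 on 2 kPa or replicate 3 on 20 kPa, the call on elastic gels was lost too, with adjusted p from 0.0674 to 0.0759.

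Cavin2 codes for a cavin that binds phosphatidylserine and shapes the membrane of caveolae. It measured 63.85, 84.24 and 68.81 CPM on 2-kPa elastic gels and 144.8, 171.6 and 251.1 CPM on 20-kPa elastic gels. It measured 120.7, 95.81 and 64.18 CPM on 2-kPa viscoelastic gels and 99.19, 94.25 and 96.39 CPM on 20-kPa viscoelastic gels. Each of the 3 samples on 20-kPa elastic gels lay above the other 9, and the other groups overlapped on 2-kPa gels and on viscoelastic gels. With stiffness on elastic gels Cavin2 rose by 1.39 on the log2 scale (SE 0.202, adjusted p = 0.000505). At 20 kPa it fell by 48.9% on viscoelastic gels, a log2 fold change of -0.97 (SE 0.200, adjusted p = 0.00217). The stiffness difference on viscoelastic gels was 0.046, with an interval from -0.38 to 0.47. The viscoelastic effect differed between the stiffnesses by -1.34 (SE 0.283, adjusted p = 0.0098).

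These 3 calls of Cavin2 held under each alternative and without any single sample. The lowest sizes came without replicate 3 on 20-kPa elastic gels, the sample with the highest level. Leaving out samples in turn moved the rise on elastic gels between 1.13 and 1.56 and the difference at 20 kPa between -1.14 and -0.71. At 2 kPa the viscoelastic difference of 0.37 (adjusted p = 0.206) was called without replicate 3 of the viscoelastic group, at 0.58 (adjusted p = 0.0476), and with no filter on low counts (0.0314). The group with high Cavin2 also had the lowest summed cartilage markers, 4320 to 4370 CPM, and Schwann cell markers at 43 to 47.2 CPM against 52.4 to 93 CPM in the other groups. Their part in the result was not tested.

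Cavin3 codes for the cavin that binds protein kinase C delta and links caveolae to the actin cytoskeleton. It measured 58.25, 53.48 and 52.94 CPM on 2-kPa elastic gels and 62.76, 57.63 and 59.22 CPM on 20-kPa elastic gels. It measured 63.66, 68.19 and 68.69 CPM on 2-kPa viscoelastic gels and 69.19, 66.8 and 71.81 CPM on 20-kPa viscoelastic gels. The lowest viscoelastic sample lay above the highest elastic one. Cavin3 was the caveolae gene higher on viscoelastic gels at both stiffnesses, by 0.28 at 2 kPa (SE 0.0588, adjusted p = 0.00397) and by 0.21 at 20 kPa (SE 0.0585, adjusted p = 0.0129) on the log2 scale. The mean effect was 1.19-fold (log2 0.25, SE 0.0415, adjusted p = 0.000365), and the difference between the stiffnesses, -0.074, had an interval from -0.25 to 0.10. Neither stiffness comparison passed the test, at 0.125 on elastic gels (adjusted p = 0.176) and 0.051 on viscoelastic gels (0.681). The first was called with GC offsets, at 0.186 (0.0254), and with the block and both offsets, at 0.17 (0.0431).

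With exons of 1662 bases Cavin3 is the shortest of the 7. When each sample's trend on gene length was removed, its difference at 20 kPa shrank to 0.038 (adjusted p = 0.621), and that at 2 kPa to 0.19 (adjusted p = 0.0211). Over all settings the mean effect was lowest at 0.11 and stayed called, with the highest adjusted p at 0.0255. The difference at 20 kPa was also lost without replicate 2 of the elastic group (0.0608) or replicate 3 of the viscoelastic group (0.0576).

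Ehd2 varied least of the 7, by 1.17-fold from the lowest to the highest sample. It measured 224.8, 234.6 and 222.8 CPM on 2-kPa elastic gels and 255.2, 261 and 259.1 CPM on 20-kPa elastic gels. It measured 250.6, 248.3 and 249.9 CPM on 2-kPa viscoelastic gels and 247.4, 239.8 and 239.7 CPM on 20-kPa viscoelastic gels. The 4 groups stood one above the other with no overlap, from 2-kPa elastic over 20-kPa viscoelastic and 2-kPa viscoelastic to 20-kPa elastic gels. Only the rise with stiffness on elastic gels passed the test, at 1.14-fold (log2 0.18, SE 0.0503, adjusted p = 0.0239). The viscoelastic differences were 0.13 at 2 kPa (adjusted p = 0.0713) and -0.093 at 20 kPa (adjusted p = 0.169). The interaction was -0.23 (SE 0.071, adjusted p = 0.0648), called with GC offsets (0.031) and by DESeq2 (0.00108). The difference at 2 kPa was called under 5 of 9 other settings, with adjusted p from 0.00748 to 0.0404, and that at 20 kPa by DESeq2 (0.0353). The call on elastic gels was lost with no filter on low counts (0.0758) and without replicate 1 or 3 on 2 kPa or replicate 2 or 3 on 20 kPa (0.0729 to 0.085).

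Pacsin2 was the caveolae gene lower on viscoelastic gels by the mean effect. It measured 94.2, 86.59 and 82.15 CPM on 2-kPa elastic gels and 85.38, 94.49 and 103.1 CPM on 20-kPa elastic gels. It measured 79.8, 74.39 and 77.36 CPM on 2-kPa viscoelastic gels and 85.97, 73.3 and 80.14 CPM on 20-kPa viscoelastic gels. At 2 kPa the groups did not overlap, and at 20 kPa the highest viscoelastic sample lay just above the lowest elastic one. The mean effect was a fall of 13.7% (log2 -0.21, SE 0.0547, adjusted p = 0.00651), and it stayed called under each alternative. At 20 kPa the log2 difference was -0.24 (SE 0.0773, adjusted p = 0.0264), and at 2 kPa -0.18 (adjusted p = 0.108). The effect at 20 kPa minus that at 2 kPa was -0.057, with an interval from -0.29 to 0.18. The call at 20 kPa was lost with total counts alone (0.0524) and without replicate 2 or 3 of either 20-kPa group (0.0644 to 0.135). The 5 smooth muscle and pericyte markers, mainly Cspg4, were lower on viscoelastic gels, as Pacsin2 was and Cavin3 was not, with sums of 393 to 562 CPM on elastic and 296 to 353 CPM on viscoelastic gels. Their part in those results was not tested.

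Caveolins and cavins assemble in roughly fixed proportions, so each gene was also set against Cav1 within the same sample, which needs no scaling between libraries. Elastic gels held 19.94 ± 1.25 Cav2 counts per 100 Cav1 counts (SD, n = 6) and viscoelastic gels 17.81 ± 1.55. The log2 ratio differed by -0.165 on viscoelastic gels, with p = 0.005 and an adjusted p of 0.03 in a two-sided exact permutation test within stiffness over 6 ratios, where 0.005 is the smallest p that the 400 arrangements can give. Pacsin2 measured 13.96 ± 1.42 counts per 100 Cav1 counts on elastic and 11.92 ± 0.764 on viscoelastic gels, a log2 difference of -0.225 (exact permutation p = 0.01, adjusted p = 0.03). At 2 kPa the Cav2 ratio was 21 ± 0.704 on elastic and 17.89 ± 2.39 on viscoelastic gels (SD, n = 3). At 20 kPa it was 18.87 ± 0.155 and 17.73 ± 0.505. The Pacsin2 ratio was 14.82 ± 1.55 and 11.44 ± 0.647 at 2 kPa. At 20 kPa it was 13.1 ± 0.643 and 12.39 ± 0.599, with overlap. Neither stiffness was tested alone. The fitted difference in Cav1 itself was 0.19 at 2 kPa and -0.16 at 20 kPa, neither called. Without 1 sample, which leaves fewer arrangements, the adjusted p reached 0.06 for Cav2 and 0.075 for Pacsin2, and the Cav2 difference was -0.107 without replicate 3 of the 2-kPa viscoelastic group.

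Cavin3 measured 8.81 ± 0.865 counts per 100 Cav1 counts on elastic and 10.35 ± 0.836 on viscoelastic gels, a log2 difference of 0.234 that missed the threshold (exact permutation p = 0.035, adjusted p = 0.07). At 2 kPa its ratio was 9.28 ± 0.83 on elastic and 9.93 ± 1.06 on viscoelastic gels (SD, n = 3), with overlap. At 20 kPa it was 8.35 ± 0.725 and 10.77 ± 0.329, without overlap. Cavin1 measured 77.14 ± 3.86 and 80.57 ± 6.48 (exact permutation p = 0.31), and Ehd2 37.2 ± 2.11 and 37.37 ± 2.11 (p = 0.855). Cavin2 measured 12.18 ± 1.51 counts per 100 Cav1 counts on 2-kPa elastic gels and 13.7 ± 3.31 on 2-kPa viscoelastic gels (SD, n = 3). At 20 kPa it measured 26.05 ± 5.84 on elastic and 15.03 ± 0.701 on viscoelastic gels. The difference between the gel types over both stiffnesses, -0.31, did not pass the exact permutation test (p = 0.165).

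**Figure D3:**
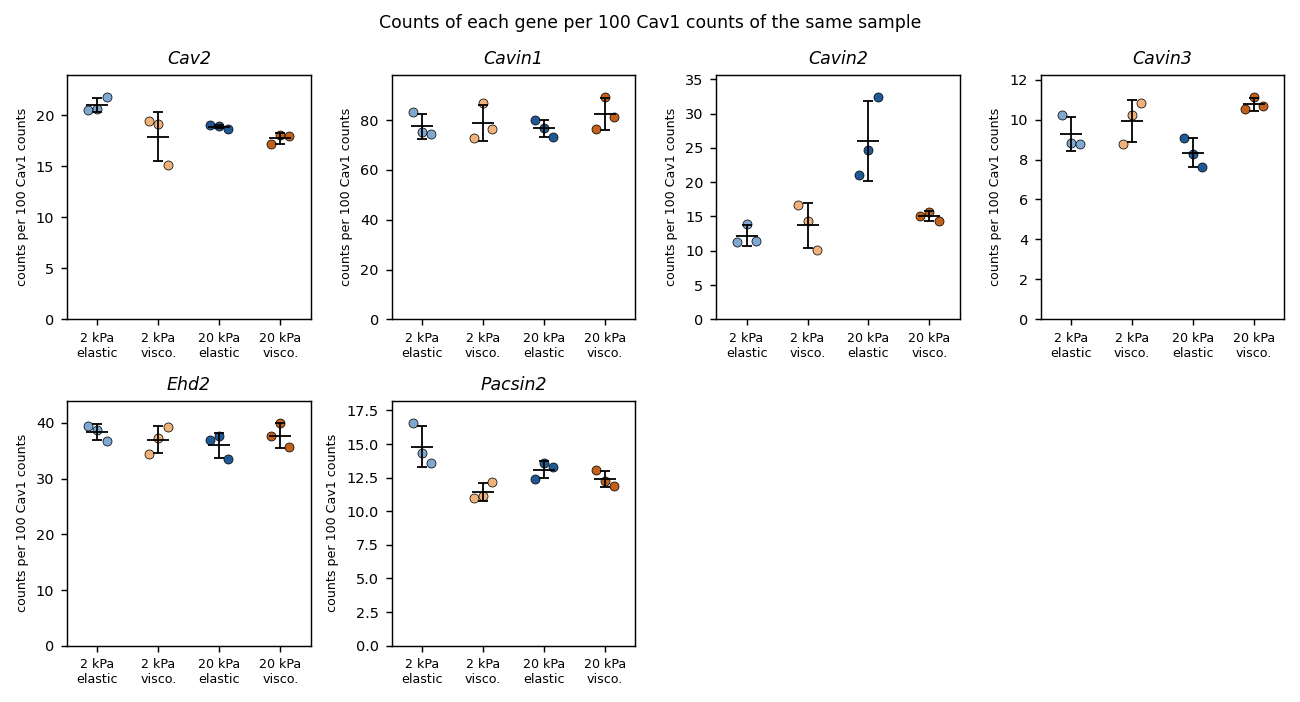
Counts of 6 caveolae genes per 100 Cav1 counts of the same sample (vertical axes from 0), by gel group. Points are samples, lines means and bars SDs of 3 samples. Cavin2 stands at 26.05 on 20-kPa elastic gels and at 12.18 to 15.03 in the other 3 groups, while Ehd2 stays between 36.01 and 38.38.

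Over the 12 samples, the profiles of Cav1 and Cavin1 were set beside those of all genes tested by Pearson's r of log2 CPM, as a description of samples that share 4 groups. The genes most like Cav1 were Cast (0.965), Rras2 (0.958) and Klf7 (0.954). Among the caveolae genes, r with Cav1 was 0.861 for Cavin2, 0.827 for Ehd2, 0.708 for Cavin1, 0.596 for Cav2, 0.308 for Pacsin2 and 0.208 for Cavin3. The genes most like Cavin1 were Nexn (0.927), Lats2 (0.923) and Ms4a4d (0.899), while Ehd2 reached 0.72 and Pacsin2 -0.0538. Cav2, the neighbour and partner of Cav1, was thus less like it in profile than Cavin2, Ehd2 and Cavin1 were, a ranking that was not tested.

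Genes related to caveolae were counted in 5 lists. Of 7 paralogs of the caveolae genes 6 were tested. In the mean viscoelastic effect 1 was called, where 40.0% of all genes were called and 20.4% were called lower. The median over the list was -0.0119. The gene called was Ehd4, which acts in endosomal traffic, lower at -0.155 (SE 0.057, adjusted p = 0.0416). That call was lost with total counts alone (0.111) and in 8 of the 12 fits without 1 sample. Pacsin3 stood at 0.114 (adjusted p = 0.141). Cav3, the muscle caveolin, had low counts, with 100 to 165 per sample. It rose from 2.55 ± 0.184 to 3.65 ± 0.314 CPM on viscoelastic gels at 2 kPa (log2 0.52, adjusted p = 0.0126), and its interaction was -0.71 (SE 0.186, adjusted p = 0.0309). The difference at 2 kPa lost its call without replicate 1 of the elastic (0.0611) or replicate 3 of the viscoelastic group (0.0537), and the interaction in 8 of the 12 fits without 1 sample.

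Of 12 neck, actin and membrane partners of caveolae 10 were tested, of which 1 was called higher and 6 lower by the mean viscoelastic effect, with a median of -0.139. Of all genes 19.6% were called higher and 20.4% lower. The 7 calls became 4 with total counts alone or with gene length offsets and 2 with the replicate block and both offsets, and 5 to 7 without 1 sample. Flna, the filamin that ties caveolin-1 to actin stress fibers, averaged 1772 and 2111 CPM on 2- and 20-kPa elastic gels and 1437 and 1278 CPM on the viscoelastic ones. Its mean effect was -0.51 (SE 0.0792, adjusted p = 0.000197). The 1 higher gene was Cd59a, a membrane protein held by a lipid anchor.

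Of 7 enzymes that add phosphate to caveolin or remove it, 4 were called, all lower, with a median of -0.19, where 20.4% of all genes were called lower. That count was 2 to 4 under other settings and 4 to 5 without 1 sample. Prkca, a protein kinase C found in caveolae, was lower at -0.32 (SE 0.0458, adjusted p = 0.000109), and so was Abl2 at -0.40 (SE 0.0761, adjusted p = 0.000875). Src was among the 4, and Fyn and Yes1 were not. Of the 2 flotillins, which form other membrane domains without caveolin, Flot1 rose and Flot2 was not called. Flot1 averaged 77.46 ± 0.418 and 84.52 ± 11.1 CPM on 2- and 20-kPa elastic gels and 112 ± 3.25 and 105.6 ± 4.18 CPM on the viscoelastic ones. Its mean effect was 0.43 (SE 0.053, adjusted p = 4.39e-05), while that of Flot2 was 0.0084 (adjusted p = 0.909).

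Of 12 genes of the clathrin coat and its AP2 adaptor, which carry the other main route of uptake, 3 were called higher and 4 lower, with a median of -0.0186. The light chain Clta was higher at 0.185 (SE 0.0358, adjusted p = 0.00101) and the heavy chain Cltc lower at -0.26 (SE 0.0538, adjusted p = 0.00165). The count of 7 was 4 to 7 under other settings and 3 to 8 without 1 sample. Clta lost its call with gene length offsets (0.0603, adjusted p = 0.202) and with the block and both offsets (0.113). For the counts of the mean effect the background is the 40.0% of all genes it called. Across the 5 lists the stiffness comparison on viscoelastic gels called 1 gene, Ror1, lower, where it called 2.28% of all genes. On elastic gels, where 14.0% of all genes were called, it called Ehd1, Fyn and Ap2a2 higher and Dnm1 lower.

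**Figure D4:**
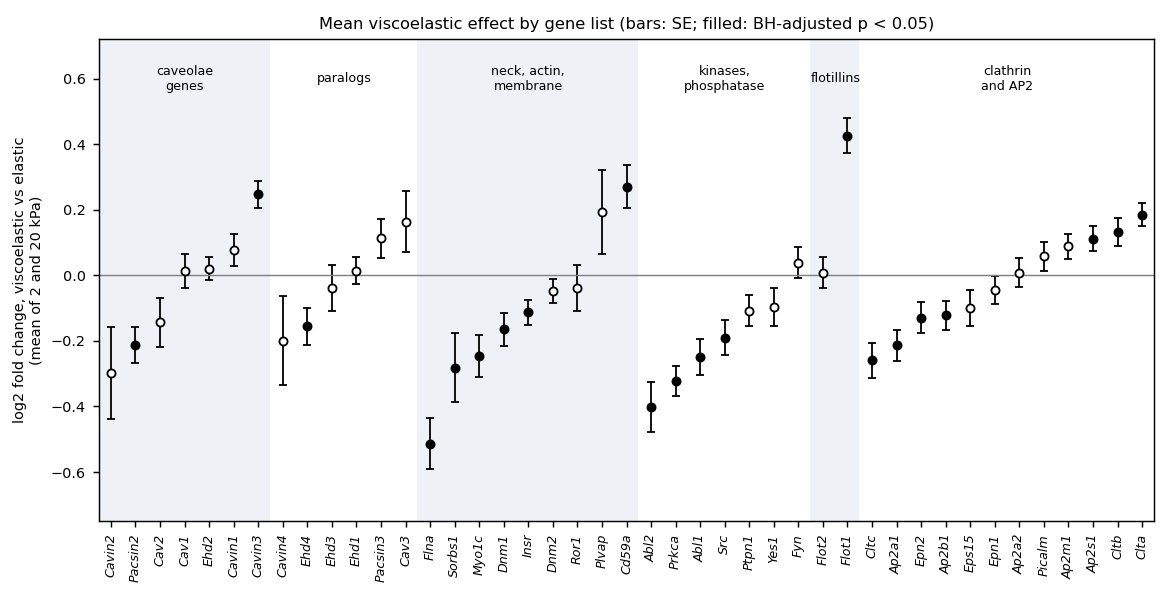
Mean viscoelastic effect over both stiffnesses (log2 fold change, vertical axis) for the tested genes of the caveolae genes and the 5 related lists, without 1 gene that is not reported here. Bars are standard errors, and filled points passed an adjusted p of 0.05 over all genes tested. Flot1 is the highest point at 0.43 and Flna the lowest at -0.51, with Cavin3 at 0.25 and Pacsin2 at -0.21 among the caveolae genes.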

How the data were processed

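PolyA RNA of 12 samples was sequenced, grouped by the labels. The authors trimmed reads with Trimmomatic, aligned them to mm10 with STAR, counted them with featureCounts on GENCODE genes and deposited raw counts per gene and sample, without normalization. The GENCODE release, strand setting and treatment of multimapping reads are not given in the sources used here. The ATAC-seq was not analysed here.

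Tests used edgeR 4.0.16 (R 4.3.3): filterByExpr (minimum count 10, total 15), TMM scaling, and 1 quasi-likelihood model with a coefficient per group over all 12 samples. Standard errors are the log2 fold change over the square root of F, and intervals are 95%. Count ratios had 0.5 added. Symbols were matched to GENCODE of GRCm38 for position and length (27818 by symbol, 1394 after replacing punctuation, 4034 not matched). RefSeq promoter windows covered 6 of the 7 genes.

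The 7 genes, the 5 related lists, the markers and the tests were chosen with earlier results of these data known. Of each related list the 2 genes with the lowest adjusted p of the mean viscoelastic effect were named with values, and the 3 genes most like Cav1 and Cavin1. One gene that this rule names is not reported here. Genes behind small counts (Cav3, Cd59a, Src, Fyn, Yes1, Ror1, Ehd1, Ap2a2 and Dnm1) were named after their values were seen. Alternatives were DESeq2 1.42.0, edgeR with its size factors or with library totals, no filter on low counts, a replicate block, length and GC offsets, only the groups compared, and leaving out each sample.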

Additional observations from a re-analysis of the deposited data

Results flagged for a closer look

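The viscoelastic effect on Cavin2 differed between the stiffnesses by the test of the difference itself. The log2 fold change at 20 kPa minus that at 2 kPa was -1.34 (SE 0.283, adjusted p = 0.0098, edgeR), from 0.37 at 2 kPa and -0.97 at 20 kPa. All 3 viscoelastic samples lay below the 3 elastic ones at 20 kPa. At 2 kPa 2 of the 3 viscoelastic samples lay above the elastic ones.

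The viscoelastic effect on Cav3, the muscle caveolin, differed in the same way, by -0.71 (SE 0.186, adjusted p = 0.0309), from 0.52 at 2 kPa and -0.19 at 20 kPa. This gene had 100 to 165 counts per sample. The call was lost in 8 of the 12 fits that leave out 1 sample, with adjusted p up to 0.081, and the difference moved between -0.841 and -0.627.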

How the results depend on the processing

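Over the 7 genes and 6 comparisons, 868 values were computed under alternatives: 776 kept direction and side of the threshold, 31 lost a call, 41 gained one and 20 changed sign. No setting moved the median of all genes by over 0.1 on the log2 scale. The number of caveolae genes called at 2 kPa, 2 in the report, was 4 with total counts alone or DESeq2 and 1 with the replicate block or only the 2 groups, and 1 to 3 without 1 sample. For the interaction it was 1, and 2 with DESeq2's size factors, total counts, every gene or length offsets, 4 with GC offsets or DESeq2, and 1 to 4 without 1 sample. Without 1 sample the counts were 1 to 4 at 20 kPa, 1 to 4 for stiffness on elastic gels and 2 to 4 for the mean effect. The cause of these shifts was not tested.

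Signs changed only for values that no setting named here called. Cav2 at 2 kPa was 0.000405 with total counts and -0.155 to 0.109 without 1 sample. For stiffness on viscoelastic gels, Cavin3 was -0.0346 with length offsets, Cavin1 was 0.00414 with GC offsets, and the block with length and GC offsets gave 0.00738 for Cavin1, -0.00734 for Cavin2 and -0.0054 for Cavin3. Without 1 sample these values were -0.235 to 0.0285 for Cav2, -0.0692 to 0.0381 for Cavin1, -0.165 to 0.272 for Cavin2 and -0.00888 to 0.106 for Pacsin2. The mean effect on Cav1 was -0.0259 with length offsets, -0.0441 with the block and both offsets, and -0.0126 to 0.0427 without 1 sample, and the interaction of Pacsin2 was -0.133 to 0.0112. The mean effect on Flot2, which no setting called, was -0.0656 with length offsets, -0.0336 with the block and both offsets, and -0.0144 to 0.0409 without 1 sample. Ratios to Cav1 without 1 sample were -0.197 to -0.107 for Cav2, 0.202 to 0.278 for Cavin3, -0.019 to 0.032 for Ehd2 and -0.255 to -0.183 for Pacsin2.

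Same-numbered replicates did not deviate together: the correlations of their deviations from the group means ran from -0.2 to 0.308, with 2 of 18 over 0.1, both between the viscoelastic groups (0.0483 to 0.308 there), so the numbers were not taken as pairs. With the replicate block the Cavin1 difference at 2 kPa was 0.211 (edgeR, adjusted p = 0.0701). The ratios of Cav2 and Pacsin2 were -0.165 and -0.225 with it (exact permutation, adjusted p = 0.188 for both). The unadjusted permutation p of Cav2, 0.03125, is the smallest that the 64 swaps allow. No other call of a caveolae gene changed with the block. Over all genes, the calls for stiffness on viscoelastic gels were 331, and 37 to 769 under other settings and 9 to 352 without 1 sample. Without 1 sample they were 1557 to 3086 at 2 kPa, 3192 to 5444 at 20 kPa, 1068 to 2430 for stiffness on elastic gels and 670 to 1181 for the interaction, against 2892, 4866, 2029 and 1100. Each caveolae gene had at least 1928 counts in every sample, and the part of depth in the calls was not tested.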

Other observations

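Summed over the 7 caveolae genes, the 3 samples on 2-kPa elastic gels held 1600.1, 1643.1 and 1612.4 CPM, below each of the other 9 samples. Those on 20-kPa elastic gels held 1922.3, 1943.9 and 2158.7 CPM. The sums on viscoelastic gels were 1912.2, 1860.7 and 1677.4 CPM at 2 kPa and 1776.1, 1718.3 and 1829.6 CPM at 20 kPa, so they lay between the elastic groups. Cav1 and Cavin1 make up most of each sum, and no test was run on it.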
